A study of Mus musculus with 8 samples.

Results

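Methionine and isoleucine at position 36 of histone H3.3 were compared in C3H10T1/2, a cultured mouse line established from embryonic mesenchyme, through 1 RNA-seq library of each. Both lines stably expressed an H3.3 transgene with a FLAG-HA epitope tag, carrying K36M (lysine 36 to methionine) in one and K36I (lysine 36 to isoleucine) in the other, and were grown untreated in serum-containing medium. Beside them the study held tagged H3.3 lines with the wild-type sequence (WT) or K36A, K36L or K36R, and tagged H3.1 lines with K36M or K36R, again 1 library each. What drives the transgenes, whether a line was a clone or a pool, and how much tagged histone each line made is not given in the sources used here. No deletion of the cells' own H3 genes is mentioned. A difference between 2 libraries therefore holds the substitution, the line and the library together, which cannot be told apart.

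For each gene the deposited value in H3.3 K36I was subtracted from that in H3.3 K36M, on the log2 scale of the authors' variance-stabilised table, so that positive values mean higher with methionine. Genes were kept where both libraries together averaged 1 or more above the table's lowest value, a level of about 31.1 normalised reads. Normalised reads are the whole reads recovered from the table divided by the library's size factor. This kept 14350 of 31276 genes. A difference of at least 1 is called here, with no test and no p-value, since there was 1 library a side. Folds are ratios of normalised reads with an exact 95% interval that covers counting error only and takes each read as independent. Many low counts were even numbers, and whether both reads of a pair were counted is not given. If they were, the intervals are too narrow even for counting error. The spread between cultures was not measured, and the range over the 4 other H3.3 lines is given in its place. The libraries held 61139941 (K36M) and 68020958 (K36I) reads, and over all 8 libraries totals ran from 45448249 to 68020958. Reads of the 45S ribosomal precursor made up 2.19% of the K36M and 1.90% of the K36I library, and 1.66% to 5.24% over all 8.

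Lysine 36 of histone H3 is methylated by enzymes that include NSD1, WHSC1 (NSD2), WHSC1L1 (NSD3), ASH1L and SETD2, and the mark is found over transcribed genes and between them, where it limits PRC2, the Polycomb complex that methylates lysine 27. Methionine at position 36 is known from chondroblastoma, a cartilage tumour. It binds in the active site of these methyltransferases and lowers the methylation of the cell's unmutated H3, and isoleucine has been described to do the same. The side chain of methionine is long, unbranched and holds sulfur, while that of isoleucine is branched next to the backbone.

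Few genes differed between the lines. Of the 14350 genes, 185 (1.29%) differed by at least 1, of which 98 (0.683%) were higher and 87 (0.606%) lower in K36M. Counts of called members in the gene families below are to be read beside these shares. The median difference was 0.01, its SD over genes was 0.29, and 93.6% of genes lay within 0.5 of 0. Under the same rule, the pairs among the 4 other H3.3 lines differed in 146 to 404 genes, and K36M or K36I against any of those 4 differed in 888 to 1264. The K36M and K36I pair thus had the third fewest of the 15 pairs, after WT and K36L (146 genes, 1.04%) and K36A and K36L (172 genes, 1.22%), and just before K36R and WT (254 genes, 1.81%). The pairs share libraries, so their counts are not independent of each other. The median ratio of normalised reads among the called genes was 3.60, and in 74 of the 185 it was at least 4.

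**Figure D1:**
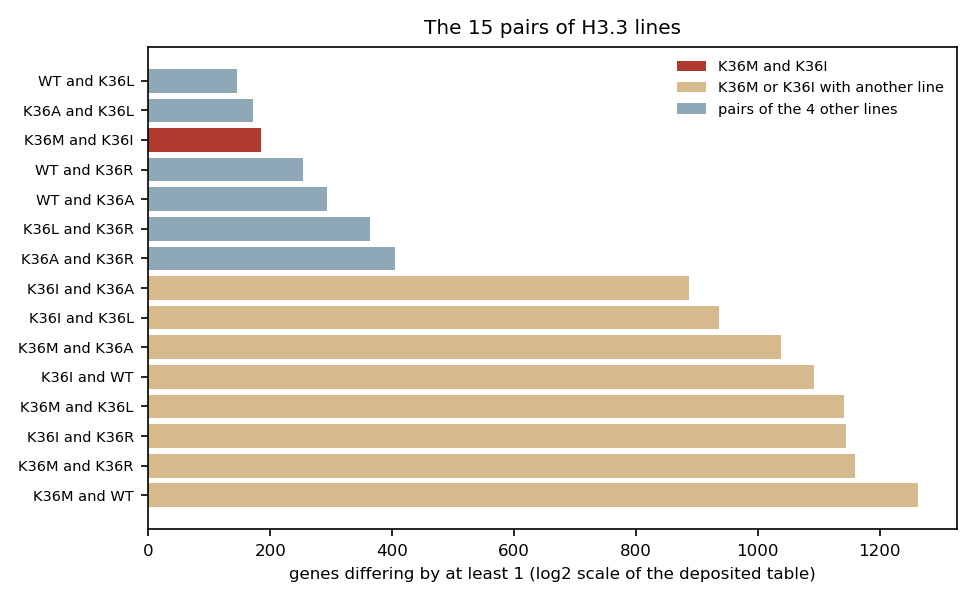
Genes differing by at least 1 on the log2 scale of the deposited table (x axis) in each of the 15 pairs of H3.3 lines (bars, 1 library a side), ordered by count. The K36M and K36I bar, at 185 genes, sits among the pairs of the 4 other lines (146 to 404) and below every pair that sets K36M or K36I against another line (888 to 1264).

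**Figure D2:**
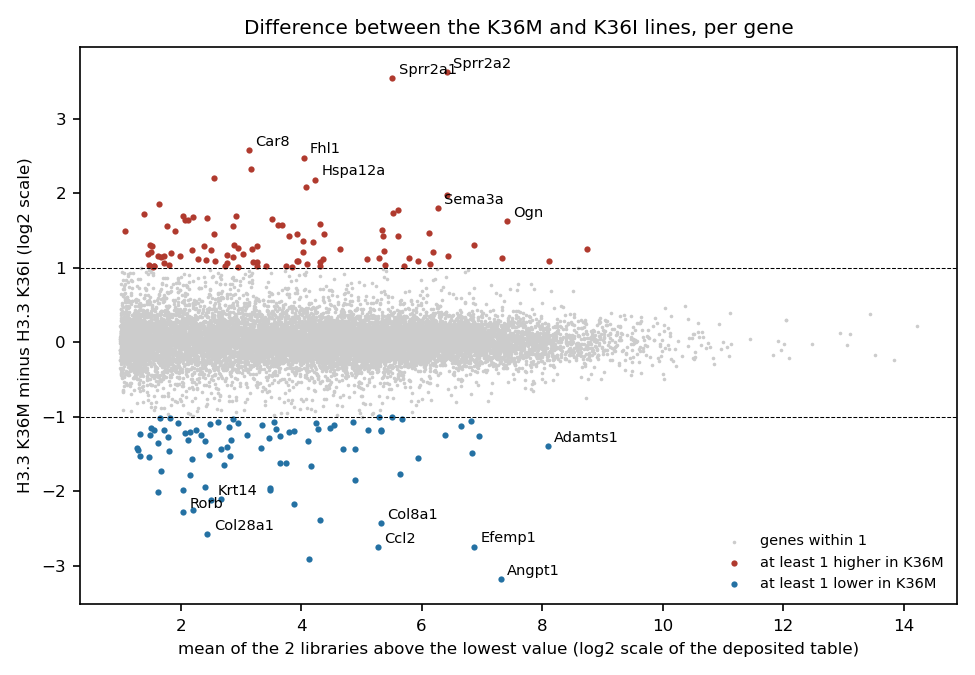
Difference between H3.3 K36M and H3.3 K36I (y axis) against the mean of the 2 libraries above the lowest value of the table (x axis), both on the deposited log2 scale, with 1 point for each of 14350 genes. The 98 genes at least 1 higher in K36M are red and the 87 at least 1 lower are blue, with dashed lines at 1 and -1, and both kinds occur from low to high levels.

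Which of the lines departed from the rest was read from the range of WT, K36A, K36L and K36R. In 97 of the 185 genes (52.4%) both K36M and K36I lay outside that range on the same side. They did so in 6457 of all 14350 genes kept (45.0%), a share not far below. Of the 97 called genes, K36M lay further out in 65 and K36I in 32. In 38 genes only K36M lay outside, in 29 only K36I, in 8 they lay on opposite sides, and in 13 neither lay outside. The same splits over all genes kept are not given, except for opposite sides. These counts therefore do not set K36M or K36I apart as the more extreme line. Over all genes kept, K36M lay outside in 63.3% and K36I in 62.0%, and 363 genes had them on opposite sides. The difference between K36M and K36I was larger than the whole range of the 4 other lines in 127 of the 185 genes (68.6%). Over all genes kept it was so in 2701 (18.8%). This is a description only, since the 185 genes were chosen by that difference. Many called genes also varied between the other lines: in 89 of the 185 (48.1%) that range was itself at least 1, against 4.65% of all genes kept.

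Small proline-rich proteins, which are cross-linked into the cornified envelope of skin cells, gave both the largest differences and a split within 1 family. Of 20 such envelope genes in the table only 4 passed the filter, and all 4 were called, 2 each way, against 1.29% of all genes kept. The filter used the mean of the 2 compared libraries, so a gene could pass mainly through the library where it is high. The count of 4 is thus partly set by the filter. Sprr2a1 and Sprr2a2 also overlap and are not independent of each other. Sprr2a2 had 18496 normalised reads in H3.3 K36M and 1393 in H3.3 K36I, a difference of 3.62 and a fold of 13.3 (95% counting interval 12.6 to 14.0). Its other H3.3 values were 3.74 in WT, 70.3 in K36A, 52.9 in K36L and 1.91 in K36R, so both lines were above all 4 and K36M was far above K36I. Sprr2a1 had 9610.4 normalised reads in H3.3 K36M and 713 in H3.3 K36I (difference 3.55), with 0 to 33.7 in the 4 other H3.3 lines. Sprr2k went the other way, with 36.4 normalised reads in H3.3 K36M and 509.6 in H3.3 K36I (difference -2.26, 14.0-fold (95% counting interval 10.1 to 19.96) higher in K36I). For Sprr2k the 4 others held 33.6 in WT, 109 in K36A, 237 in K36L and 49.6 in K36R, so only K36I was above their range. Sprr1a, with 40.3 normalised reads in K36M and 196 in K36I (difference -1.17), lay within the range of the 4 others in both lines. These genes lie close together on chromosome 3 (GRCm38), Sprr2a1 at chr3:92215799-92221911, Sprr2a2 at chr3:92215920-92256724, Sprr2k at chr3:92432582-92433925 and Sprr1a at chr3:92483952-92485895.

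The upstream sequences of Sprr2a1, Sprr2a2 and Sprr2k are shown because genes of 1 subfamily differed in opposite directions. They are the 250 bases before each RefSeq start on GRCm38.p6, plus strand, at chr3:92215585-92215834, chr3:92250397-92250646 and chr3:92432332-92432581. The gene spans given above are from GENCODE, which places the Sprr2a1 and Sprr2a2 starts elsewhere. The Sprr2a2 window thus lies inside its GENCODE span, and the Sprr2a1 window runs past its GENCODE start. Capitals mark TATAAA and TGANTCA (the letters of a TATA box and of an AP-1 site), searched on both strands. Of 32851 RefSeq starts, 12.4% hold the former and 6.75% the latter in a window of this length.
Sprr2a1: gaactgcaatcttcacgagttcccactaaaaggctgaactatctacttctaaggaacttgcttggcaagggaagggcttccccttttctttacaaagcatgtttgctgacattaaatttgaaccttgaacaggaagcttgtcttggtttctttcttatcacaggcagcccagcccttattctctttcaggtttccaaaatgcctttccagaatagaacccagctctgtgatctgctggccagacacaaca
Sprr2a2: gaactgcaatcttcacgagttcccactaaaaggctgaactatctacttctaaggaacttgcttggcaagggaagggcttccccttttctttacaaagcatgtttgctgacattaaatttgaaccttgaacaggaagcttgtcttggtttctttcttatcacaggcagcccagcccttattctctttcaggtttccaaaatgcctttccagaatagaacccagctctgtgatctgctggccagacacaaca
Sprr2k: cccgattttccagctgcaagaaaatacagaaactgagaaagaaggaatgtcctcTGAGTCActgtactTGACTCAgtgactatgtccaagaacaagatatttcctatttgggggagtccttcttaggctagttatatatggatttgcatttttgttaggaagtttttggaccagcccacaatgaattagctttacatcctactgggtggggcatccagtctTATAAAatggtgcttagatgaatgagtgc
The windows of Sprr2a1 and Sprr2a2 differ at 0 of 250 bases, and the next 50 bases differ at 0 as well. The 2 annotated genes also overlap, so how reads were divided between them is uncertain. Their ratio in normalised reads (Sprr2a2 over Sprr2a1) was 1.92 in K36M and 1.95 in K36I. Sprr2k holds TATAAA from 29 bases before its start and TGANTCA from 196 and from 182 bases before it, and the Sprr2a windows hold neither. These matches describe the letters of the windows only.

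**Figure D3:**
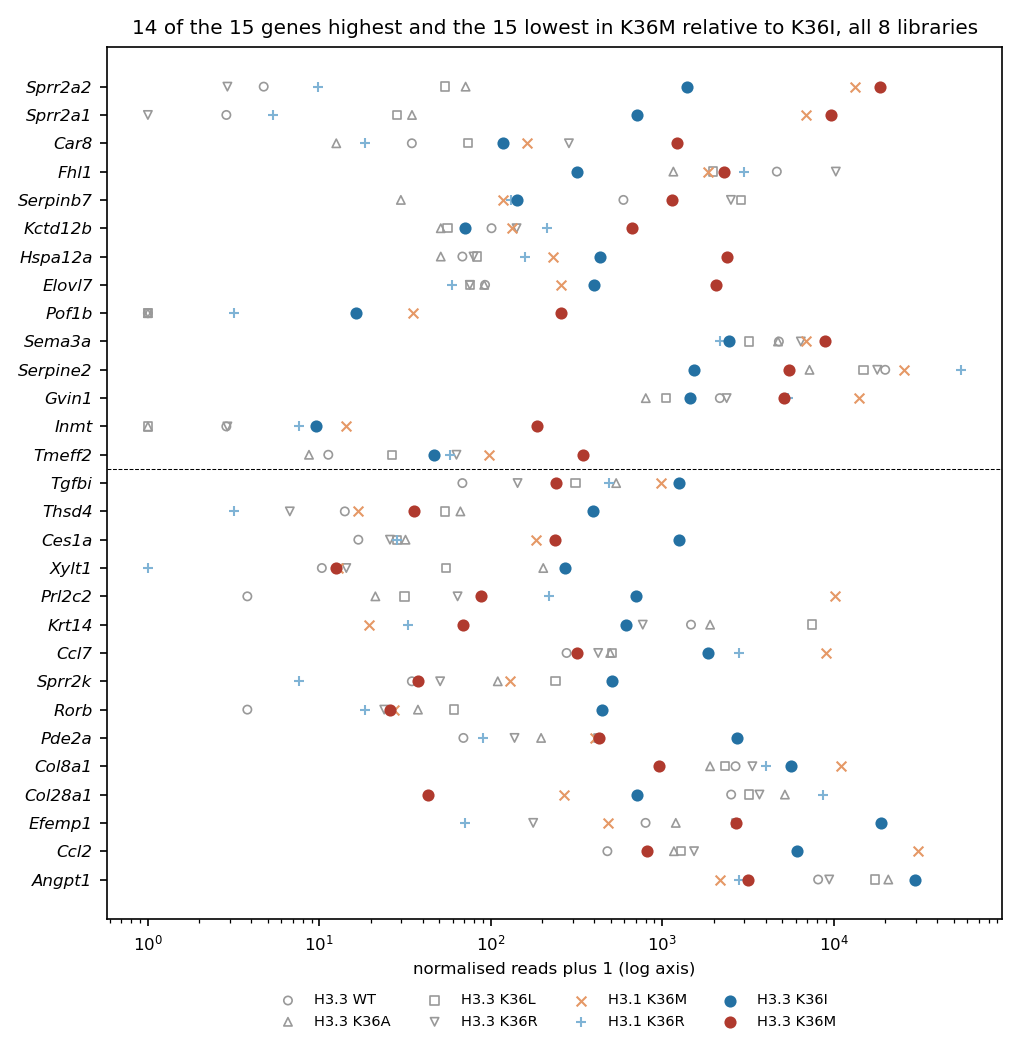
Normalised reads plus 1 (x axis, log scale) in all 8 libraries for 14 of the 15 genes highest (above the dashed line) and the 15 lowest (below it) in H3.3 K36M relative to H3.3 K36I, 1 library per symbol. For Sprr2a2, Hspa12a and Elovl7 both lines stand above the open grey symbols of the 4 other H3.3 lines, whereas for Serpinb7 those symbols reach from below K36I to above K36M.

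The other 13 genes highest in K36M have varied known roles. Car8, a carbonic anhydrase-related protein without enzyme activity, had 1214 normalised reads in H3.3 K36M and 116 in H3.3 K36I (difference 2.58), and 33.6 in WT, 11.6 in K36A, 72.5 in K36L and 284 in K36R, so only K36M was outside. Hspa12a, a member of the HSP70 family, had 2374 normalised reads in H3.3 K36M and 433 in H3.3 K36I (difference 2.18) against 50.1 to 82.3 in the 4 others. Elovl7, an elongase of long-chain fatty acids, had 2053 normalised reads in H3.3 K36M and 397 in H3.3 K36I (difference 2.08) against 74.4 to 91.5. In Hspa12a and Elovl7 both lines stood above the 4 others, whose own range was small (0.32 and 0.15 on the log2 scale). Inmt, an indolethylamine methyltransferase, had 185 normalised reads in H3.3 K36M and 8.55 in H3.3 K36I (difference 1.72), and at most 1.91 in the 4 others. Tmeff2, a transmembrane protein with follistatin and EGF-like domains, had 345 normalised reads in H3.3 K36M and 45.3 in H3.3 K36I (difference 1.69), with K36I inside and K36M above the others' range. Gvin1, a large interferon-inducible GTPase, had 5099 normalised reads in H3.3 K36M and 1455 in H3.3 K36I (difference 1.73), again with K36M alone outside. Serpinb7, an intracellular serpin, and Fhl1, a LIM-domain protein of muscle, are of another kind. Serpinb7 had 1138 normalised reads in H3.3 K36M and 142 in H3.3 K36I (difference 2.33) and 592 in WT, 28.9 in K36A, 2884 in K36L and 2512 in K36R, a range of 4.63 that was larger than the difference.

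Among the genes lowest in K36M, Angpt1, which encodes the angiopoietin ligand of the TEK receptor, had the largest difference. It had 3164 normalised reads in H3.3 K36M and 29579 in H3.3 K36I (difference -3.18, 9.35-fold (95% counting interval 9.02 to 9.69) higher in K36I), and 8104 in WT, 20792 in K36A, 17394 in K36L and 9404 in K36R. K36M thus lay below all 4 and K36I above all 4. Angpt1 overlaps a predicted gene on the opposite strand, and whether counting used strand is not given. Tek itself, the receptor, had 286 normalised reads in K36M and 302 in K36I. Its other H3.3 values were 1605 in WT, 3244 in K36A, 1496 in K36L and 2647 in K36R, so both lines were below all 4. Efemp1, a fibulin of the matrix, had 2690.3 normalised reads in H3.3 K36M and 18732 in H3.3 K36I (difference -2.74), with 798 in WT, 1197 in K36A, 2686 in K36L and 176 in K36R, so both lines were above the range and K36I further. Pde2a, a phosphodiesterase of cyclic nucleotides, had 424 normalised reads in H3.3 K36M and 2709 in H3.3 K36I (difference -2.39), and Ces1a, a carboxylesterase, had 236 and 1257 (difference -1.98). Both genes were above the 4 others in both lines. Rorb, a nuclear receptor, had 24.9 normalised reads in H3.3 K36M and 446 in H3.3 K36I (difference -2.28). Xylt1, a xylosyltransferase that starts glycosaminoglycan chains, had 11.5 and 269 (difference -2.01), and Thsd4, a thrombospondin-repeat protein of microfibrils, 34.5 and 392 (difference -1.98). For these 3 genes K36M was within the range of the 4 other lines and K36I above it. Prl2c2, a proliferin with near-identical copies whose reads may be divided between them, had 86.3 normalised reads in H3.3 K36M and 700.2 in H3.3 K36I (difference -2.11) and 10101 in H3.1 K36M.

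Small leucine-rich proteoglycans, which bind collagen fibrils and growth factors in the matrix, were the list with the largest number of members on the higher side. Of 8 members kept, 4 were higher in K36M and 0 lower, with a median of 0.64, against 0.683% higher and a median of 0.01 over all genes kept. Ogn (osteoglycin) had 18500.4 normalised reads in H3.3 K36M and 5906 in H3.3 K36I (difference 1.63, 3.13-fold (95% counting interval 3.05 to 3.22)), and 28559.5 in WT, 27573 in K36A, 26860.4 in K36L and 30449 in K36R. The 4 others were tightly grouped, K36M lay below them and K36I lower still. Omd (osteomodulin) had 4049 normalised reads in H3.3 K36M and 1439.8 in H3.3 K36I (difference 1.42), with 2509.8 in WT, 3743 in K36A, 3134 in K36L and 5113 in K36R. Aspn (asporin) had 6770.4 normalised reads in H3.3 K36M and 2868 in H3.3 K36I (difference 1.20), with 7967 in WT, 10554 in K36A, 5618 in K36L and 18128 in K36R. For Omd and Aspn K36M was within the range of the 4 others and K36I below it. Dcn (decorin) had 428 normalised reads in H3.3 K36M and 123 in H3.3 K36I (difference 1.24), but the 4 others ran from 40.4 to 2155 and held both. The member with the most negative difference was Prelp, at -0.98. In the H3.1 pair, which shares no library with this one, H3.1 K36M was lower than H3.1 K36R for Ogn (-1.74), Omd (-0.93), Aspn (-1.68) and Dcn (-0.79). The comparator there is K36R and not K36I. H3.3 K36M was likewise below H3.3 K36R for all of these genes (428 and 2155 normalised reads for Dcn).

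Aspn, Omd and Ogn are neighbours on chromosome 13 (GRCm38), at chr13:49544443-49567565, chr13:49582462-49592822 and chr13:49608046-49624501, and no other gene kept starts between them. Aspn overlaps Cenpp on the opposite strand. Their upstream windows are shown because these neighbours differed in the same direction by similar amounts. They are again the 250 bases before the RefSeq start on GRCm38.p6, plus strand, at chr13:49544193-49544442, chr13:49582212-49582461 and chr13:49607765-49608014, with TATAAA on either strand in capitals.
Aspn: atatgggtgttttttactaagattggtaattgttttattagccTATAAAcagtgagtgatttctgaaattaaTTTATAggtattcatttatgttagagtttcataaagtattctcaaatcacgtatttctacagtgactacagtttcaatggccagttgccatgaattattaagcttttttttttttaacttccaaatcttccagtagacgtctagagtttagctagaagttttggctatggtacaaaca
Omd: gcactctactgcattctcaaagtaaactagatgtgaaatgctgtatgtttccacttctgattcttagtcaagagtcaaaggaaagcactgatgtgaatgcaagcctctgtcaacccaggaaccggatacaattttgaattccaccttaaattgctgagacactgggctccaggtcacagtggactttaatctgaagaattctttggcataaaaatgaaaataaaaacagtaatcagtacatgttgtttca
Ogn: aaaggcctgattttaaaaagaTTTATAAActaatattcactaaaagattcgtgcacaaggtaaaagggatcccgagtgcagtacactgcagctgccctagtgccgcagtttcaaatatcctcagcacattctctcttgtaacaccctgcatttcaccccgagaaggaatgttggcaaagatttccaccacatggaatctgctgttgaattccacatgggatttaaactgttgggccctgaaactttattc
TATAAA was found in the windows of Aspn (from 207 and 178 bases before the start) and Ogn (from 229 and 227 bases before it, overlapping on opposite strands), and not in that of Omd. TGANTCA was found in none of the 3. The windows hold 2, 1 and 4 CpG dinucleotides for Aspn, Omd and Ogn.

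Fibrillar and other interstitial matrix genes moved both ways: of 32 kept, 2 were higher and 2 lower, with a median of 0.06. Over all genes kept, 0.683% were higher and 0.606% lower. Col28a1, a collagen of nerve sheaths, had 42.2 normalised reads in H3.3 K36M and 709 in H3.3 K36I (difference -2.58, 16.8-fold (95% counting interval 12.4 to 23.3) higher in K36I), while the 4 others held 2520.1 to 5188. Both lines were far below the rest, K36M further. Col8a1, a short-chain collagen of vessel walls, had 955 normalised reads in H3.3 K36M and 5665 in H3.3 K36I (difference -2.43) and 2672 in WT, 1898 in K36A, 2322 in K36L and 3351 in K36R, with K36M below and K36I above the range. Thbs1, which encodes thrombospondin 1, had 14719.6 normalised reads in H3.3 K36M and 6637 in H3.3 K36I (difference 1.13), and the 4 others 43756 to 116579. Mfap5, a microfibril protein, had 498 normalised reads in H3.3 K36M and 185 in H3.3 K36I (difference 1.06). Of 25 metalloproteinases and inhibitors 0 were higher and 1 lower: Adamts1, a protease of proteoglycans, with 10356 normalised reads in H3.3 K36M and 27438 in H3.3 K36I (difference -1.40). Tgfbi, a matrix protein induced by TGF-beta and the 1 called member of 33 BMP and TGF-beta genes, had 239.8 normalised reads in H3.3 K36M and 1247 in H3.3 K36I (difference -1.95). None of 15 basement membrane genes was called, the largest being Lamb3 at 0.92.

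Secreted signals also split. Of 9 chemokines kept 1 was higher and 2 lower, against 0.683% higher and 0.606% lower over all genes kept. Ccl2, the main attractant of monocytes, had 809 normalised reads in H3.3 K36M and 6133 in H3.3 K36I (difference -2.75, 7.58-fold (95% counting interval 7.06 to 8.16) higher in K36I), with 477 in WT, 1168 in K36A, 1286 in K36L and 1531 in K36R. Its neighbour Ccl7, which acts on related receptors, had 317 normalised reads in H3.3 K36M and 1836 in H3.3 K36I (difference -2.18), with 276 in WT, 496 in K36A, 509 in K36L and 422 in K36R. In both genes K36M was within the range of the others and K36I above it. Both H3.1 lines were above H3.3 K36I for these genes, by little in H3.1 K36R for Ccl2, with H3.1 K36M at 30859.7 and H3.1 K36R at 6215 normalised reads, against 9044 and 2787 for Ccl7. Ccl2 and Ccl7 lie side by side on chromosome 11, at chr11:82035571-82037453 and chr11:82045712-82047525. Cxcl5, a neutrophil attractant, had 1065 normalised reads in H3.3 K36M and 469 in H3.3 K36I (difference 1.02), above the 4 others in both lines.

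Of 29 cytokines and growth factors kept, 2 were higher and 3 lower (median 0.04), against 0.683% higher and 0.606% lower over all genes kept. Il33, an alarmin, had 1448 normalised reads in H3.3 K36M and 459 in H3.3 K36I (difference 1.44), and Gdnf, a neurotrophic factor, 255 and 65.0 (difference 1.15). The 4 others held at most 62.7 and 26.4, so both lines were above them and K36M further. Il34, a ligand of the CSF1 receptor, had 71.0 normalised reads in H3.3 K36M and 313 in H3.3 K36I (difference -1.31), below the others in K36M and above them in K36I. Ptn (pleiotrophin) had 4132 normalised reads in H3.3 K36M and 9179.8 in H3.3 K36I (difference -1.13), and Kitl, the KIT ligand, 4769 and 10091 (difference -1.06), both below the others in both lines. Kitl, like Sema3c below, was chosen after its value was seen. Among 14 WNT ligands and modulators Rspo3, an R-spondin, was the 1 called, with 224 normalised reads in H3.3 K36M and 48.7 in H3.3 K36I (difference 1.20), inside a range of 1.96 to 445 in the 4 others. Igfbp2, which binds insulin-like growth factors and was the 1 called of 15 genes of that axis, had 363 normalised reads in H3.3 K36M and 54.7 in H3.3 K36I (difference 1.64) and at most 7.83 in the 4 others.

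Complement and serpin genes had 3 of 16 members higher and 0 lower (median 0.15), against 0.683% higher and 0.606% lower over all genes kept. Among the 3, C1s, a protease of the classical pathway, had 3498 normalised reads in H3.3 K36M and 1538 in H3.3 K36I (difference 1.13), above the others in both lines. Serpine2, an inhibitor of thrombin and plasminogen activators, had 5486 normalised reads in H3.3 K36M and 1524 in H3.3 K36I (difference 1.77), below the others in both. Of 27 interferon-stimulated genes 1 was higher, Oas1a, at the edge of the threshold (1.001, 146 and 33.3 normalised reads), and the median was 0.31. None of 17 antigen presentation genes was called. In the Schlafen family Slfn4, known from myeloid cells, was the 1 called of 7 kept, with 2993 normalised reads in H3.3 K36M and 1319 in H3.3 K36I (difference 1.11) and at most 40.4 in the 4 others.

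Guidance and adhesion molecules held called genes in both directions. Of 31 axon guidance genes 3 were higher and 2 lower (median 0.08), against 0.683% higher and 0.606% lower over all genes kept. Sema3a, a secreted repellent, had 8828 normalised reads in H3.3 K36M and 2454 in H3.3 K36I (difference 1.80), with 4784 in WT, 4727 in K36A, 3197 in K36L and 6424 in K36R, and was the 1 gene among the 98 with K36M above and K36I below the range of the 4 others. Nrp1, its receptor, had 3615 normalised reads in H3.3 K36M and 1701 in H3.3 K36I (difference 1.04), below the others in both lines. Sema3e had 113 and 3.42 normalised reads (difference 1.48, 33.1-fold (95% counting interval 12.6 to 123), a wide interval since K36I had few reads). It passed the filter only through K36M, so the count of 3 higher is partly set by the filter. The semaphorins Sema5a (-1.18) and Sema3c (-1.001) were lower. Of the ephrin receptors, which sense contact between cells, Epha5 was higher, with 333 normalised reads in H3.3 K36M and 102 in H3.3 K36I (difference 1.11) and 0 reads in all 4 others, and Epha4 lower, with 561 and 1576 (difference -1.32). These 2 were the called members of 35 FGF, ERK feedback and receptor kinase genes.

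Of 18 cadherins and other adhesion genes 3 were higher and 1 lower, beside the same 0.683% and 0.606%. Cdh11, the cadherin of mesenchymal cells, had 25063 normalised reads in H3.3 K36M and 11698 in H3.3 K36I (difference 1.09), and 4103 in WT, 3075 in K36A, 776 in K36L and 20410.2 in K36R. Fat4, a giant protocadherin, had 4826 normalised reads in H3.3 K36M and 1725 in H3.3 K36I (difference 1.42), and Cdh10, a type II cadherin, 648 and 224 (difference 1.19). All 3 varied between the 4 others by more than they did between K36M and K36I. Pcdh1 had 9.59 normalised reads in H3.3 K36M and 139 in H3.3 K36I (difference -1.43), with 464 to 875 in the 4 others. Pcdh1 passed the filter only through K36I, so the count of 1 lower is partly set by the filter. None of 36 clustered protocadherins was called, Pcdha1 being nearest, and of 17 integrins only Itgb7, a partner of integrin alpha 4, was (-1.07, 1122 against 2497 normalised reads). Among contractile genes Actg2, the enteric smooth muscle actin, was the 1 called of 14, with 2017 normalised reads in H3.3 K36M and 664 in H3.3 K36I (difference 1.45), above the 4 others in both lines. Of 24 YAP-TEAD target genes Nov (1.23) and Wisp2 (1.09), secreted CCN proteins, were higher, and 0 lower, beside the same 0.683% and 0.606%.

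**Figure D4:**
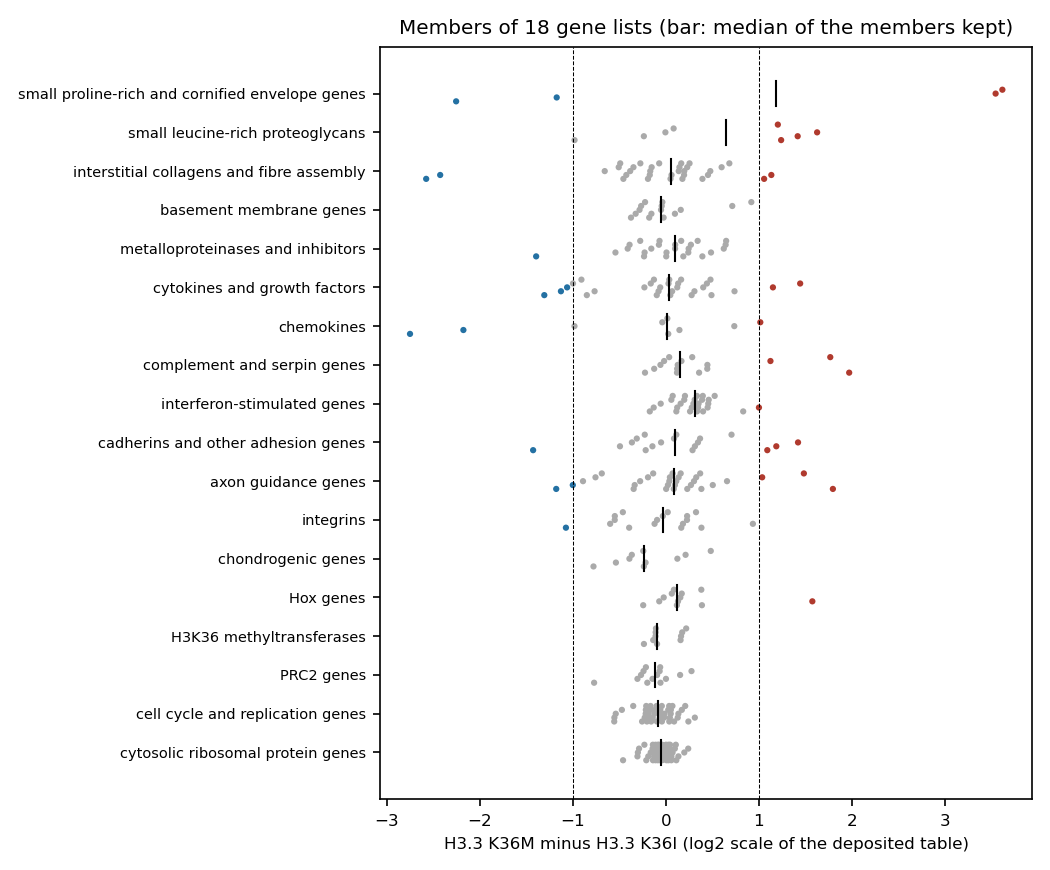
Difference between H3.3 K36M and H3.3 K36I (x axis, deposited log2 scale) for each member kept of 18 gene lists (rows), with the median of each list as a bar. Points at least 1 above 0 are red and points at least 1 below are blue. Small leucine-rich proteoglycans have 4 red points and 0 blue, proline-rich and chemokine genes have both, and the histone methyltransferase, PRC2, cell cycle and ribosomal lists have neither.

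Lineage genes of this multipotent line are given next. None of 10 chondrogenic, 14 adipogenic or 7 skeletal muscle genes was called, and with 1.29% of all genes called, a count of 0 in lists this short sets them apart in no way. The cartilage regulator Sox9 had 564 normalised reads in H3.3 K36M and 1049.9 in H3.3 K36I (difference -0.78), with 3052 to 4445 in the 4 others. Of 10 osteogenic genes Omd alone was called. Among 12 Hox genes Hoxb9, a patterning factor, was higher, with 1197 normalised reads in H3.3 K36M and 327 in H3.3 K36I (difference 1.58), and 1.87 in WT, 150.2 in K36A, 5.88 in K36L and 1.91 in K36R. In the H3.1 lines Hoxb9 had 1154 normalised reads with K36M and 0 with K36R. None of 38 developmental transcription factors was called. Among 22 imprinted genes 2 were higher, led by Ndn, which encodes necdin (1.43, 1308 and 414 normalised reads, within a range of 174 to 1865). The other was Dcn, described above, which has been listed as imprinted in mouse placenta. Of 6 germline genes kept, Rhox5, a homeobox gene on chromosome X, was the 1 called, with 395 normalised reads in H3.3 K36M and 59.8 in H3.3 K36I (difference 1.68) and at most 25.5 in the 4 others.

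None of 10 H3K36 methyltransferases, which write the mark, was called, where 1.29% of all genes were: Setd2 (-0.09), Nsd1 (0.16), Whsc1 (-0.11), Whsc1l1 (-0.24) and Ash1l (-0.14) all lay within 0.5 of 0, as did 93.6% of all genes kept. The PRC2 core genes Ezh2 (0.00), Eed (-0.09) and Suz12 (-0.27) did too, with Ezh2 at 2682 and 2679 normalised reads. The H3.3 genes had 8211 and 7478 normalised reads for H3f3a (0.13) and 54302 and 76602 for H3f3b (-0.50). H3f3b ran from 73005 to 103761 in the 4 others. Whether reads of the transgene fall in these genes is not given, so they do not check the labels. No member was called among 21 H3K36 demethylases and readers, 22 PRC1 genes, 13 DNA methylation genes, 42 cell cycle genes, 54 cytosolic ribosomal protein genes, 27 cholesterol synthesis genes or 30 genes of the unfolded protein response. Of 24 immediate early genes Fosb was higher (1.20), and of 33 replication-dependent histone genes Hist1h1a, a linker histone, was lower (-1.25, 4857 against 11759 normalised reads).

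The label of the cells was checked on marker genes. All 18 mesenchymal markers passed the filter, with summed levels of 524437 normalised reads in K36M and 586671 in K36I, and Thy1 alone was called (-1.43). Of 17 leukocyte markers 6 passed, and the sum over all 17 was 9936 in K36M, 5828 in K36I and 707 to 1245 in the 4 others. Cd53 and Lcp1, an actin bundler (1.503, 4151 and 1386), made up most of it. Cd14 (498 normalised reads in K36M and 445 in K36I), Lyz2 (375 and 306), Cd68 (162 and 242) and Coro1a (86.3 and 66.7) passed as well. Ptprc (7.67 and 1.71) and the T-cell marker Cd3e (0 and 0) were near or at 0. Of 14 epithelial markers 5 passed and Krt14, a basal keratin, was lower, with 68.1 normalised reads in H3.3 K36M and 616 in H3.3 K36I (difference -2.11) and 1469 in WT, 1899 in K36A, 7440.0 in K36L and 768 in K36R. The other 4 were not called: Krt7 (0.64, 434 and 239 normalised reads, against 3.74 to 11.6 in the 4 others) and Krt19 (0.15) were above 0, and Cdh1 (-0.53) and Krt8 (-0.30) below. For Krt7, Krt8 and Krt19 both lines were above the range of the 4 others, whereas Krt14 was below it in both. Epcam and Cldn3 had 0 reads in both lines. None of the 3 endothelial or 5 neural markers kept was called, and Kdr, Emcn, Olig2, Nefl and Nefm had 0 reads in both.

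Called genes were set beside H3.1 K36M minus H3.1 K36R, a pair whose comparator is K36R and not K36I. Of the 98 genes higher in H3.3 K36M, 38 (38.8%) were higher and 13 (13.3%) lower by at least 1 in that pair, and of the 87 lower genes, 27 (31.0%) were higher and 18 (20.7%) lower. Over all genes kept, 639 (4.45%) were higher and 364 (2.54%) lower in the H3.1 pair. Both groups thus held larger shares than the background in both directions, and in both the higher side was the more frequent, as it was over all genes. Sprr2a2 (7.21), Il33 (4.28) and Lcp1 (4.19) were higher in H3.1 K36M and in H3.3 K36M relative to K36I. Ccl2 (2.29), Prl2c2 (4.95) and Itgb7 (2.41) were higher in H3.1 K36M but lower in H3.3 K36M than in K36I. Hspa12a (0.35), Kctd12b (-0.43) and Angpt1 (-0.36) differed by less than 1 in the H3.1 pair.

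Whole chromosomes were shifted between the lines by small amounts. Of 20 chromosomes, 5 had a median difference at least 0.1 from 0, and the other 15 lay between -0.02 and 0.07. Genes of chromosome 13 had a median of 0.18 (519 genes, 83.0% of them above 0), those of chromosome 1 a median of 0.15 (746 genes, 79.4% above 0) and those of chromosome 14 a median of 0.11 (433 genes, 75.1% above 0). On the other side were chromosome 11, at -0.18 (1090 genes, 80.2% below 0), and chromosome 15, at -0.14 (536 genes, 77.8% below 0). These medians are ratios of 1.13 for chromosome 13 and 0.883 for chromosome 11. The shift ran along each of the 5 chromosomes. In windows of 20 Mb with at least 20 genes, all 6 medians of chromosome 13 (0.10 to 0.22) and all 10 of chromosome 1 (0.07 to 0.20) were above 0, as were all 5 of chromosome 14 (0.07 to 0.13). All 7 of chromosome 11 (-0.23 to -0.11) and all 6 of chromosome 15 (-0.18 to -0.11) were below it.

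Relative to the mean of the 4 other H3.3 lines, the shift of chromosome 13 was seen in K36M (median 0.18, against 0.02 in K36I) and that of chromosome 1 in K36I (-0.13, against 0.01 in K36M). Chromosome 11 stood at 0.13 in K36I and -0.05 in K36M, chromosome 14 at -0.15 and -0.06, and chromosome 15 at 0.06 and -0.10. The 4 other lines were themselves split about their mean. Chromosome 1 stood at 0.10 in K36A and -0.10 in K36L. Chromosome 13 stood at 0.08 in K36A and 0.09 in K36R, against -0.09 in WT and -0.08 in K36L. The shifts of chromosomes 1 and 13 are thus not placed in 1 line alone. Such shifts were not particular to this pair: between the lowest and the highest chromosome median the spread was 0.36 here and 0.19 to 0.55 over the 15 H3.3 pairs, which share libraries. The called genes of these chromosomes were 5 higher and 15 lower on chromosome 11, 10 higher and 3 lower on chromosome 13, 11 higher and 7 lower on chromosome 1, 5 higher and 6 lower on chromosome 15, and 1 higher and 0 lower on chromosome 14. Taken relative to its chromosome's median, an alternative chosen after seeing the data, each gene still gave 187 called genes, of which 170 were among the 185. DNA copy number was not measured in these libraries, and its part in the shifts was not tested.

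**Figure D5:**
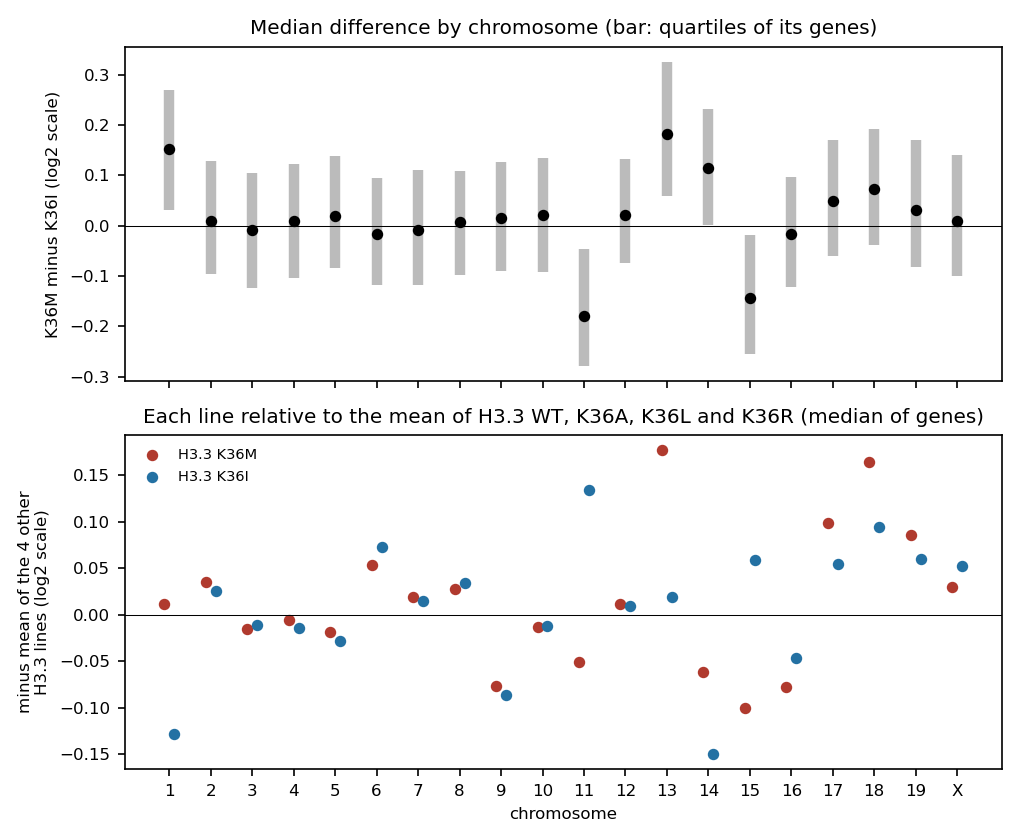
Top, median difference between H3.3 K36M and H3.3 K36I (y axis, deposited log2 scale) over the genes kept of each chromosome (x axis), with bars from the lower to the upper quartile of its genes. Bottom, the same for K36M (red) and K36I (blue), each relative to the mean of the 4 other H3.3 lines. In the top panel chromosomes 1, 13 and 14 lie above 0 and chromosomes 11 and 15 below. In the bottom panel, of these 5, K36M is further from 0 on chromosomes 13 and 15 and K36I on chromosomes 1, 11 and 14. The 4 other lines, not drawn, were themselves split on chromosomes 1 and 13.

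Chromosome X had a median of 0.01, yet 14 of its 446 genes (3.14%) were called, 11 of them higher, against 1.29% of all genes. In each of the 15 H3.3 pairs the share called on chromosome X was above the share over all genes (1.90% to 16.8% on X). The rule names Fhl1, Kctd12b, Pof1b and Rhox5. Fhl1 had 2292 normalised reads in H3.3 K36M and 319 in H3.3 K36I (difference 2.47) and 4653 in WT, 1159 in K36A, 1969 in K36L and 10277 in K36R, a range larger than the difference. Kctd12b, a potassium channel tetramerisation domain gene, had 665 normalised reads in H3.3 K36M and 69.3 in H3.3 K36I (difference 2.20), with 50.1 to 140.3 in the others. Pof1b, an actin-binding protein of epithelia, had 254 normalised reads in H3.3 K36M and 15.4 in H3.3 K36I (difference 1.85) and 0 reads in each of the 4 others. Arhgap36, Pet2, Klhl13 and Tmsb4x, chosen after their values were seen, were higher as well. Arhgap36 had 726 and 152 normalised reads and 0 in the 4 others, whereas Tmsb4x, the actin-sequestering thymosin beta 4, had 40987 and 17235.

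Some called genes were neighbours. With starts within 300 kb of each other, 31 called genes formed 13 groups, and in 11 groups all members differed in the same direction. The same counts over all genes kept are not given, so these numbers do not set the called genes apart. Some groups hold overlapping or similar genes, such as Mndal, Ifi203 and Ifi202b, whose reads may be divided between them. Besides Aspn, Omd and Ogn and the pair Ccl2 and Ccl7, the 11 groups held Krt14 with Jup on chromosome 11 (-2.11 and -1.42). The Sprr genes were 1 of the 2 groups that differed both ways. Jup (plakoglobin, of desmosomes) was chosen after its value was seen. At the threshold, Oas1a (1.001) lay just inside and Pcdha1 (0.999) just outside on the higher side, and Sema3c (-1.001) just inside and Nrg1 (-0.999) just outside on the lower side.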

How the data were processed

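Per the labels' protocols, Trizol was used for RNA and the Illumina TruSeq procedure for libraries. Tools in the submitters' processing notes are Trimmomatic (0.32), STAR (2.3.0e), featureCounts (1.4.4) and DESeq2, with build mm10. What settings, annotation or strand they used is not given in the sources used here. In the deposited table the authors gave log2-type values, reads per gene scaled by size factors and variance-stabilised, without length correction, so levels are not compared between genes. That scale shrinks the differences of low genes. Inverting it gave whole reads for 100% of values (within 0.001). Names matched columns for all 8 libraries.

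The difference was taken between 2 columns, with 1 library a side and no test, in Python 3.11.15 (pandas 2.3.3, scipy 1.17.1). Counting intervals are exact conditional binomial intervals at 95%, take each read as independent and cover counting error only. Named genes were the 15 highest and 15 lowest, up to 4 called members of each of 54 lists (or the 1 furthest from 0), and 10 chromatin genes; predicted genes, clones and small RNA genes were counted only, and 1 gene the rule names is not reported here. The comparison and lists were chosen with earlier results of these data known. Coordinates are those of GENCODE M21 (GRCm38, as mm10), by symbol, for 12482 of 14350 genes kept; 13150 had a chromosome. Promoters are from RefSeq (GRCm38.p6). Of the 100 named genes, 24 overlap another gene, among them Sprr2a1, Sprr2a2, Hspa12a, Angpt1, Pde2a, Ces1a, Lcp1, Thbs1, Aspn, Il34, Rspo3, Nrp1 and Fat4. The steps were tested on simulated data. Alternatives changed the filter, scaling, scale, size and gene set.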

Additional observations from a re-analysis of the deposited data

How the results depend on the processing

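The counts of 98 higher, 87 lower and 185 differing genes stayed within 1.5 times under every alternative filter, under scaling by total reads, with the median difference set to 0, without genes overlapping another gene (147 of the 185), without predicted genes and clones (170), and relative to the chromosome median (chosen after seeing the data). They moved with the scale and the size. As log2 of normalised reads plus 1 there were 307 higher and 223 lower genes, 530 in all, and plus 10 there were 262, 184 and 446, since these scales shrink low genes less. At a size of at least 0.5 there were 521, 392 and 913, and at 1.5 there were 28, 31 and 59. All 68 named genes past the threshold kept their sign under each scaling and scale tried. That outcome was fixed in advance and is no support. A change of scale keeps the order of 2 values, and the shifts by scaling were far below 1. Oas1a fell under 1 with the median set to 0, and Oas1a, Cxcl5 and Itgb7 did relative to the chromosome median. Without overlapping genes 0 Sprr genes were counted as higher. No paired analysis was possible because each transgene had 1 library. Depth sets the limit at low levels: a count of 0 allows up to 3 reads, 4.41e-06% of the K36I and 4.91e-06% of the K36M library. That limit is for counting error only and takes each read as independent. The spread between cultures of 1 line was not measured.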

Other observations

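The single genes below were chosen after their values were seen, among those differing by at least 1 that the naming rule left out. They are given as values with no explanation and stand for no family, since the other members of their families were not counted. Has2, a hyaluronan synthase, had 394 normalised reads in H3.3 K36M and 103 in H3.3 K36I (difference 1.29), and Has1, another, 207 and 534 (difference -1.03). Pkp1 (plakophilin 1, of desmosomes) had 50.8 and 397 normalised reads (difference -1.78). Pde4d, a phosphodiesterase of cyclic AMP, differed by 1.26 and Pde5a, one of cyclic GMP, by 1.07. Rgs4, a regulator of G protein signalling, had 662 and 155 normalised reads (difference 1.56).

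Aim2, a sensor of DNA encoded on chromosome 1, was higher in K36M, with 750.0 normalised reads in H3.3 K36M and 252 in H3.3 K36I (difference 1.25), while the related genes Mndal (-1.15), Ifi203 (-1.66) and Ifi202b (-1.20) were lower. Ifi203 had 510.3 and 1862 normalised reads, and the 4 other H3.3 lines ran from 351 to 519.8. Mndal, Ifi203 and Ifi202b are similar in sequence, and Ifi203 and Mndal overlap, so reads may be divided between them. The chromosome 1 genes as a whole were slightly higher in K36M (median 0.15), opposite to these 3.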
